A study of Homo sapiens with 3 samples.

Results

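Splicing factor genes were examined as a group in ChIP-seq peak lists of HuCCT1 cells. The group held every protein-coding gene of GENCODE 44 whose symbol starts with SRSF, HNRNP, SF3A, SF3B, SNRP or PRPF. Membership was set by symbol alone, but the group was chosen with earlier results of these data known. In all, 73 symbols matched, and 72 of them had a protein-coding transcription start site (TSS), out of 19689 genes with such a site. The readthrough gene HNRNPUL2-BSCL2 had none and was set aside. The families comprised 12 SRSF, 26 HNRNP, 3 SF3A, 6 SF3B, 12 SNRP and 13 PRPF genes. A gene was called promoter-bound when a peak came within 1 kb of any of its protein-coding TSS, measured from the nearer edge of the peak, and every gene in reach of a peak was counted.

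HuCCT1 is an established human cholangiocarcinoma (CCA) cell line, spelled HUCCT1 in the sample labels. The labels name no treatment or genetic change of the cells. Chromatin was precipitated with an antibody against Strawberry Notch 1 (SBNO1), a nuclear protein, against TAF4, which is part of TFIID, or with control IgG, which measures the background of the procedure. Each antibody gave 1 library, sequenced from pooled precipitates of several biological replicates, so that there were no replicates to test with and the intervals given here cover counting error over genes only. The lists held 16147 SBNO1, 12763 TAF4 and 1598 IgG peaks, of which 4791, 6042 and 231 lay within 1 kb of a TSS. Peak lists hold no read numbers and no expression values, so the depth of each library is unknown and neither the cell type nor the activity of a gene could be checked.

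Splicing removes introns from precursor RNA and joins the exons. It is carried out by the spliceosome, which is built from small nuclear ribonucleoproteins (snRNPs) and many further proteins. U1 snRNP recognises the start of an intron and U2 snRNP its branch point, and the U4/U6.U5 tri-snRNP then joins to form the catalytic machine. SR proteins, encoded by the SRSF genes, mostly promote the use of nearby exons, whereas many heterogeneous nuclear ribonucleoproteins (hnRNPs) silence them. TFIID is a general transcription factor that recognises core promoters and helps to position RNA polymerase II at the TSS.

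Most splicing factor promoters carried a peak of both proteins. SBNO1 peaks marked 49 of 72 genes (68.1%, exact 95% Clopper-Pearson interval 56.0% to 78.6%), while the share over all protein-coding genes was 25.7%. TAF4 peaks marked 58 of 72 (80.6%, interval 69.5% to 88.9%), and 31.9% of all genes. IgG peaks marked 3 of 72 (4.17%, interval 0.868% to 11.7%), and 1.41% of all genes. Both SBNO1 and TAF4 were found at 47 of 72 (65.3%, interval 53.1% to 76.1%), with 22.6% over all genes. These 47 genes made up 95.9% of the SBNO1-marked and 81.0% of the TAF4-marked splicing factor genes, whereas over all genes the shared set made up 88.0% and 70.9%. A further 11 genes had TAF4 without SBNO1 (15.3%, interval 7.88% to 25.7%, all genes 9.29%). SBNO1 without TAF4 was found at 2 genes (2.78%, interval 0.338% to 9.68%, all genes 3.08%). Both of these shares over all genes lay inside the intervals. The other 12 genes had neither, which held for 12802 of all 19689 genes.

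The shares of the larger families lay close together and their intervals overlapped widely. SBNO1 marked 9 of 12 SRSF genes (75.0%), 16 of 26 HNRNP genes (61.5%), 9 of 12 SNRP genes (75.0%) and 8 of 13 PRPF genes (61.5%). TAF4 marked 10 of 12 SRSF genes (83.3%), 20 of 26 HNRNP genes (76.9%), 9 of 12 SNRP genes (75.0%) and 11 of 13 PRPF genes (84.6%). Of the 6 SF3B genes, 5 had SBNO1 and 6 had TAF4, and 2 of the 3 SF3A genes had both. The HNRNP share included 6 copies of HNRNPA1 and HNRNPC that carried no peak of any list. Among the other 20 HNRNP genes, 16 had SBNO1 (80.0%) and 20 had TAF4.

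**Figure D1:**
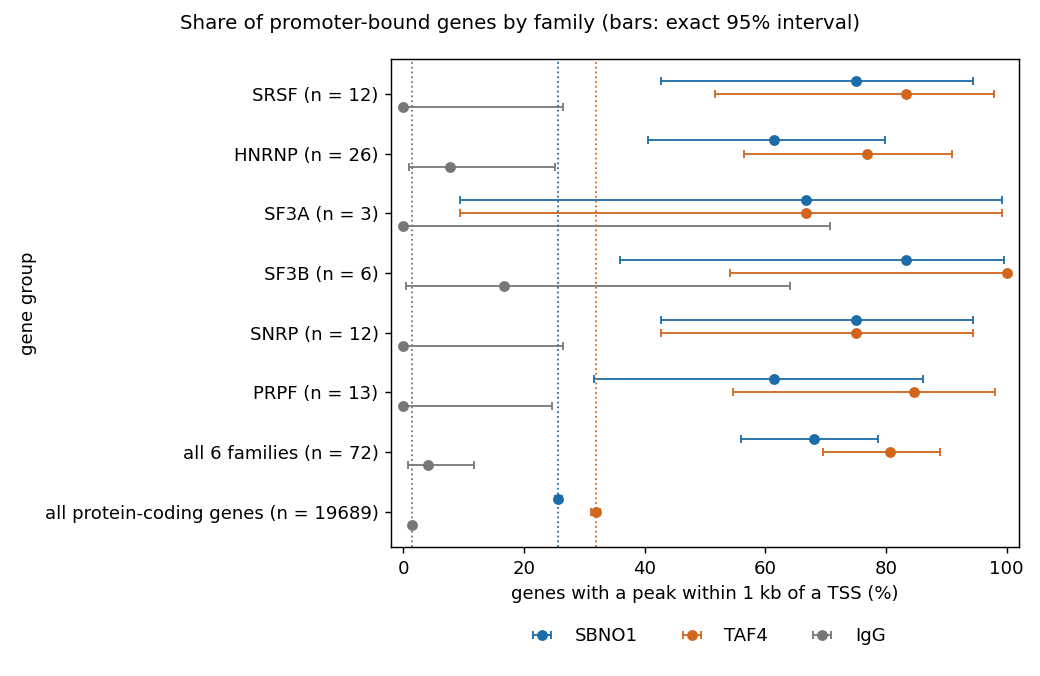
Percentage of genes with a peak within 1 kb of a TSS (x axis) for each family and for all protein-coding genes (y axis), in blue for SBNO1, orange for TAF4 and grey for IgG. Points are shares, bars are exact 95% intervals over genes and dotted lines are the shares over all protein-coding genes; SBNO1 and TAF4 points of all 6 families lie to the right of their lines, with the bars of the 3 SF3A genes crossing them.

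**Figure D2:**
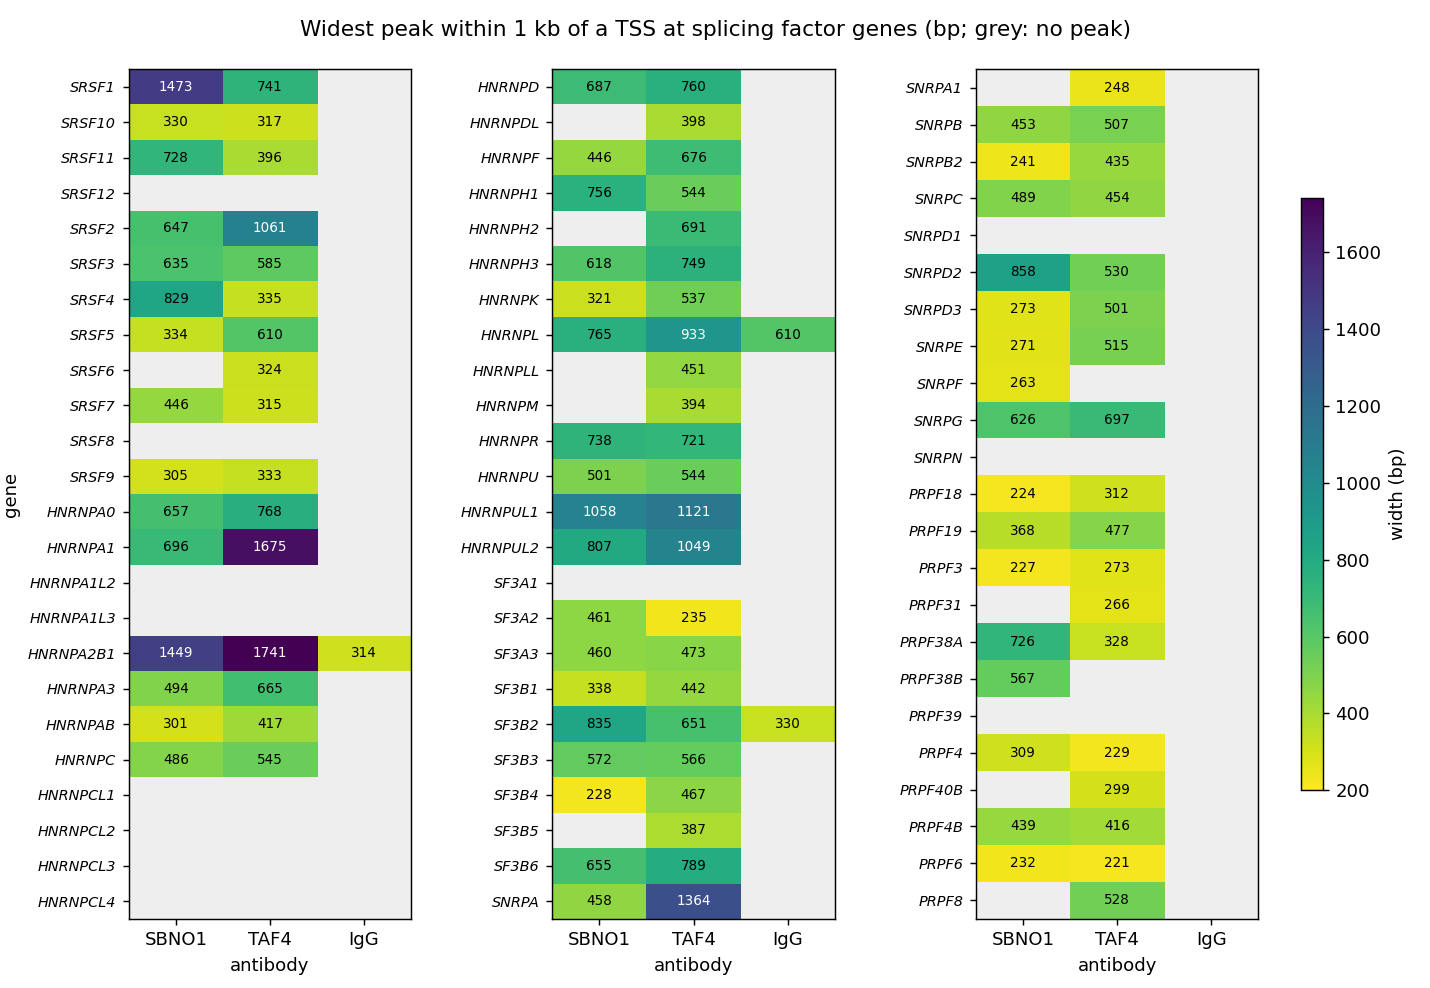
Width in bp of the widest promoter peak of each gene shown (rows, in 3 blocks) for each antibody (columns), written in the cell and coloured from yellow (narrow) to dark purple (wide). Grey cells mark genes without a peak: the IgG column is grey except for HNRNPA2B1, HNRNPL and SF3B2, and 12 rows are grey throughout.

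The sequence before a TSS under these peaks is shown for SRSF4, which served as the reference gene of the study's qRT-PCR, and for the gene with the widest SBNO1 peak of each family. HNRNPA1L3 is added as the gene without any peak that had the lowest GC content around its TSS. Each stretch ends at the base before the canonical TSS, or for SF3B2 and SNRPD2 before the most upstream TSS, and was read from GRCh38 (hg38), 5′ to 3′ on the strand of the gene. Stretches were cut to 30 bases where a longer one would have covered more of an annotated exon. The 30 bases of HNRNPA2B1 and SF3A2 thus lay wholly within annotated exons. Capitals mark exact matches, on either strand, to CCAAT (bound by NFY), CCGGAA (ETS factors), GGGCGG (SP and KLF factors) or TATAAA (the TATA box). The stretches lie at chr1:29181901-29182050, minus strand (SRSF4), chr17:58007247-58007396, minus strand (SRSF1), chr7:26200747-26200776, minus strand (HNRNPA2B1), chr19:2236794-2236823, plus strand (SF3A2), chr11:66052181-66052330, plus strand (SF3B2), chr19:45692317-45692466, minus strand (SNRPD2), chr1:52404452-52404601, plus strand (PRPF38A), and chr16:51553286-51553435, plus strand (HNRNPA1L3).
SRSF4: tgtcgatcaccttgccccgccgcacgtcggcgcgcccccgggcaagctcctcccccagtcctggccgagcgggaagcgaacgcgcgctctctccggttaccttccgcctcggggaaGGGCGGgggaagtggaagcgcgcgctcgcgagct
SRSF1: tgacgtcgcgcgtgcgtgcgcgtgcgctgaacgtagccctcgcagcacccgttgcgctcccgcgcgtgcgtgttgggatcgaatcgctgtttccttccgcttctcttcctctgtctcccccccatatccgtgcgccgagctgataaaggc
HNRNPA2B1: tagaaaagcggcggcagcggctctagcggc
SF3A2: agagggcccgtctcatttgccCCGGAAgtg
SF3B2: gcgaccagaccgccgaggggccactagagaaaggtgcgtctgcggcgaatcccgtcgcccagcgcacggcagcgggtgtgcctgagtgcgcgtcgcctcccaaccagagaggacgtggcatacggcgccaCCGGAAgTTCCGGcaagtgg
SNRPD2: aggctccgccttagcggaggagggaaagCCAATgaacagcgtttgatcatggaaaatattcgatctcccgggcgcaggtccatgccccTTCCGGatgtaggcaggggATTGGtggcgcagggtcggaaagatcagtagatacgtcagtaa
PRPF38A: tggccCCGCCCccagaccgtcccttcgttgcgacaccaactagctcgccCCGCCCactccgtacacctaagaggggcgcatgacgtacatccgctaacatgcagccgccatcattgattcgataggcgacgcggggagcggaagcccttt
HNRNPA1L3: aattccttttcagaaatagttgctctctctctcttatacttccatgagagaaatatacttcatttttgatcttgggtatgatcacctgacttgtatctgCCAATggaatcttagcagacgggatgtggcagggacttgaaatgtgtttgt

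All printed bases of the first 7 genes lay inside both an SBNO1 and a TAF4 peak, and those of HNRNPA2B1 and SF3B2 also inside an IgG peak. The stretch of SRSF4 was 73.3% G or C and that of HNRNPA1L3 38.7%. In SF3B2, ETS matches on opposite strands started at positions -20 and -13, counted from the TSS. SNRPD2 held CCAAT in the direction of the gene at -122 and in reverse, as ATTGG, at -43, counted from its most upstream TSS. The promoter window at the canonical TSS of SNRPD2, which was used for the motif counts given later, held neither CCAAT nor CCGGAA. PRPF38A held the SP and KLF match in reverse, as CCGCCC, at 2 positions.

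The SR protein genes were examined first. SBNO1 and TAF4 both marked SRSF1, SRSF2, SRSF3, SRSF4, SRSF5, SRSF7, SRSF9, SRSF10 and SRSF11. SRSF1, a regulator of exon inclusion and a known oncogene, had the widest SBNO1 peak of all splicing factor genes, with 1473 bp at chr17:58006520-58007992 and a deposited score of 504. The score is a whole number capped at 1000. Its TAF4 peak was narrower, with 741 bp at chr17:58007022-58007762 and a score of 761, and lay entirely inside the SBNO1 peak. In SRSF2, whose product acts at exonic enhancers and is mutated in myelodysplastic syndromes, the order was the opposite, with 647 bp for SBNO1 and 1061 bp for TAF4 at chr17:76737235-76738295. Both peaks of SRSF2 had a score of 1000, and both also reached the TSS of MFSD11, which starts 54 bp away on the opposite strand.

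At SRSF4 the SBNO1 peak spanned 829 bp at chr1:29181402-29182230 (score 362), whereas the TAF4 peak spanned 335 bp at chr1:29181893-29182227 (score 598). Thus, the gene used as qRT-PCR reference had a promoter peak of both proteins and no IgG peak. The SBNO1 peak of SRSF4 extended into the transcribed region, with its centre 66 bp downstream of the nearest TSS, while the TAF4 centre lay at -160 bp. SRSF6 had TAF4 alone, with 324 bp and a score of 1000, and its nearest SBNO1 peak was 56067 bp away. SRSF8 and SRSF12 had neither. SRSF8, a copy of SRSF2, had an SBNO1 peak 1706 bp and a TAF4 peak 1718 bp from its TSS, inside the gene and beyond the limit of 1 kb. The nearest peaks of SRSF12 were 179889 bp (SBNO1) and 37121 bp (TAF4) away.

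In the hnRNP family, SBNO1 and TAF4 both marked HNRNPA0, HNRNPA1, HNRNPA2B1, HNRNPA3, HNRNPAB, HNRNPC, HNRNPD, HNRNPF, HNRNPH1, HNRNPH3, HNRNPK, HNRNPL, HNRNPR, HNRNPU, HNRNPUL1 and HNRNPUL2. HNRNPA2B1, an RNA-binding protein of the exon-silencing A/B group, had the widest SBNO1 peak of the family (1449 bp, score 703, chr7:26200302-26201750) and the widest TAF4 peak of all 72 genes (1741 bp, score 933, chr7:26200068-26201808). This promoter is shared with CBX3, which starts 115 bp away on the opposite strand, and the stretch between the genes is known as a ubiquitous chromatin opening element. An IgG peak of 314 bp with a score of 871 lay inside both, at chr7:26200694-26201007. HNRNPA1, which antagonises SR proteins at many exons, had the next widest TAF4 peak (1675 bp, score 1000, chr12:54279534-54281208). Its SBNO1 signal was called as separate peaks of 264 and 696 bp. The gene CBX5 starts 71 bp from HNRNPA1 on the opposite strand. Hence, the widest TAF4 peaks of the family lay at divergent promoters shared with genes of the heterochromatin protein HP1 family.

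HNRNPL, which binds CA-rich RNA, had an SBNO1 peak of 765 bp with a score of 628, TAF4 peaks of 933 and 441 bp, and an IgG peak of 610 bp with a score of 889 at chr19:38849967-38850576. Scores of different libraries share no stated scale, so that these values cannot be compared between antibodies. HNRNPF, a binder of G-rich RNA, had peaks of both proteins at 3 separate promoters, with SBNO1 widths of 446, 202 and 267 bp and TAF4 widths of 423, 624 and 676 bp. The TAF4 peak was the wider at the last 2 of these promoters.

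TAF4 without SBNO1 was found at HNRNPH2 (691 bp, score 867), HNRNPLL (451 bp, score 997), HNRNPM (394 bp, score 1000) and HNRNPDL (398 and 279 bp). The TAF4 peak of HNRNPH2, on the X chromosome, was the widest of the splicing factor genes that lacked SBNO1 and also reached GLA, which starts 297 bp away on the opposite strand. The nearest SBNO1 peaks lay 6978 bp from the TSS of HNRNPM, 17009 bp from HNRNPH2, 33959 bp from HNRNPDL and 107062 bp from HNRNPLL. For HNRNPM this was a peak of 168 bp inside the gene, and a TAF4 peak of 202 bp lay over it. The genes without any peak were HNRNPA1L2, HNRNPA1L3 and HNRNPCL1 to HNRNPCL4. The HNRNPCL genes are close copies of each other and related to HNRNPC, and short reads from such copies cannot always be placed uniquely, so that a missing peak there is uncertain. Their nearest SBNO1 peaks were 244034 to 560945 bp away. HNRNPA1L2 had its nearest peaks at 9888 bp (SBNO1) and 9612 bp (TAF4), and HNRNPA1L3 at 1156005 and 811310 bp.

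The SF3A and SF3B proteins belong to U2 snRNP and hold it at the branch point. SF3B1, the subunit that contacts the branch helix and is mutated in several cancers, had an SBNO1 peak of 338 bp and a TAF4 peak of 442 bp, both with a score of 1000. SF3B2 had the widest SBNO1 peak of its family (835 bp, score 1000, chr11:66051777-66052611), a TAF4 peak of 651 bp with a score of 1000 and an IgG peak of 330 bp with a score of 708 at chr11:66052024-66052353. A further IgG peak of 141 bp lay within the gene body of SF3B2, 7711 bp from a TSS. SF3B6, whose product contacts the branch adenosine, had the widest TAF4 peak of the family (789 bp, score 946, chr2:24076258-24077046) and an SBNO1 peak of 655 bp with a score of 943. SF3B3 and SF3B4 had both proteins. SF3B5 had TAF4 alone (387 bp, score 1000), and its nearest SBNO1 peak was 120578 bp away.

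Within SF3A, SF3A2 had an SBNO1 peak of 461 bp at chr19:2236661-2237121 (score 640) and a TAF4 peak of 235 bp (score 877), which lay inside it. SF3A3 had an SBNO1 peak of 460 bp (score 922) and the widest TAF4 peak of the family, with 473 bp at chr1:37989885-37990357 (score 1000). SF3A1, the third subunit of the same complex, had neither, with the nearest peaks 65962 bp (SBNO1) and 14644 bp (TAF4) away. The genes of this complex, whose proteins act together, thus did not share the same peak status.

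The SNRP genes encode the proteins of the snRNPs. Of the 7 genes of the Sm ring, which is common to the U1, U2, U4 and U5 snRNPs, 6 had SBNO1 and 5 had TAF4. SNRPD2 had the widest SBNO1 peak (858 bp, score 722, chr19:45691847-45692704) and TAF4 peaks of 352 and 530 bp. Both proteins were also found at SNRPB, SNRPD3, SNRPE and SNRPG. At SNRPF the SBNO1 peak (263 bp, score 862) ended 12 bp upstream of the TSS and covered none, and the nearest TAF4 peak was 52348 bp away. SNRPD1 had neither, with its nearest peaks at 611402 bp (SBNO1) and 11215 bp (TAF4). It lies on chromosome 18, where the share over all genes was 6.87% for SBNO1 and 16.0% for TAF4, the lowest SBNO1 share of the autosomes.

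All 4 genes of U1- and U2-specific proteins, namely SNRPA, SNRPC, SNRPA1 and SNRPB2, had TAF4, and all but SNRPA1 had SBNO1. SNRPA, which encodes a protein that binds U1 RNA, had the widest TAF4 peak among the SNRP genes (1364 bp, score 1000, chr19:40750267-40751630) and SBNO1 peaks of 458 and 266 bp. SNRPA1 had a TAF4 peak of 248 bp with a score of 1000. SNRPN, an imprinted relative of SNRPB that is mainly used in the brain, was far from any peak, at 895440 bp (SBNO1) and 483944 bp (TAF4).

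The PRPF genes encode tri-snRNP components and further factors of spliceosome assembly. All 5 tri-snRNP genes examined, PRPF3, PRPF4, PRPF6, PRPF8 and PRPF31, had TAF4, and PRPF3, PRPF4 and PRPF6 also had SBNO1. Mutations of these genes are known to cause retinitis pigmentosa. PRPF8, the central protein of the catalytic core, had the widest TAF4 peak of the family (528 bp, score 738, chr17:1684554-1685081) and its nearest SBNO1 peak 31343 bp away. PRPF31 had a TAF4 peak of 266 bp with a score of 1000 at the promoter it shares with TFPT, 97 bp away. SBNO1 peaks at PRPF3, PRPF4 and PRPF6 were narrow, with 227, 309 and 232 bp.

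PRPF38A had the widest SBNO1 peak of the family (726 bp, score 663, chr1:52404421-52405146) and a TAF4 peak of 328 bp with a score of 1000. Its TSS lies 179 bp from that of ORC1 on the opposite strand. PRPF38B was the other gene with SBNO1 and no TAF4 (567 bp, score 705), and its nearest TAF4 peak was 54083 bp away. PRPF18, PRPF19, the ubiquitin ligase of the Prp19 complex, and the kinase gene PRPF4B had both. Among the U1-associated factors, PRPF40B had TAF4 alone (299 bp, score 711) and PRPF39 had neither, with the nearest peaks at 51587 bp (SBNO1) and 49881 bp (TAF4).

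The position of the peaks was examined next. An SBNO1 peak covered a TSS in 48 of the 49 marked genes (98.0%), with SNRPF as the exception, while the share was 84.6% of all SBNO1-marked genes. A TAF4 peak covered a TSS in all 58 marked genes, and in 90.4% of all TAF4-marked genes. The median position of the peak centre was -58.5 bp from the nearest TSS for SBNO1 (64 peaks) and -70 bp for TAF4 (71 peaks), where negative values are upstream, and over all genes it was -79 and -69 bp. In 14 of 49 genes (28.6%) more than 1 SBNO1 peak was in reach, compared with 12.0% of all SBNO1-marked genes. For TAF4 this was 12 of 58 (20.7%) and 13.2%.

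**Figure D3:**
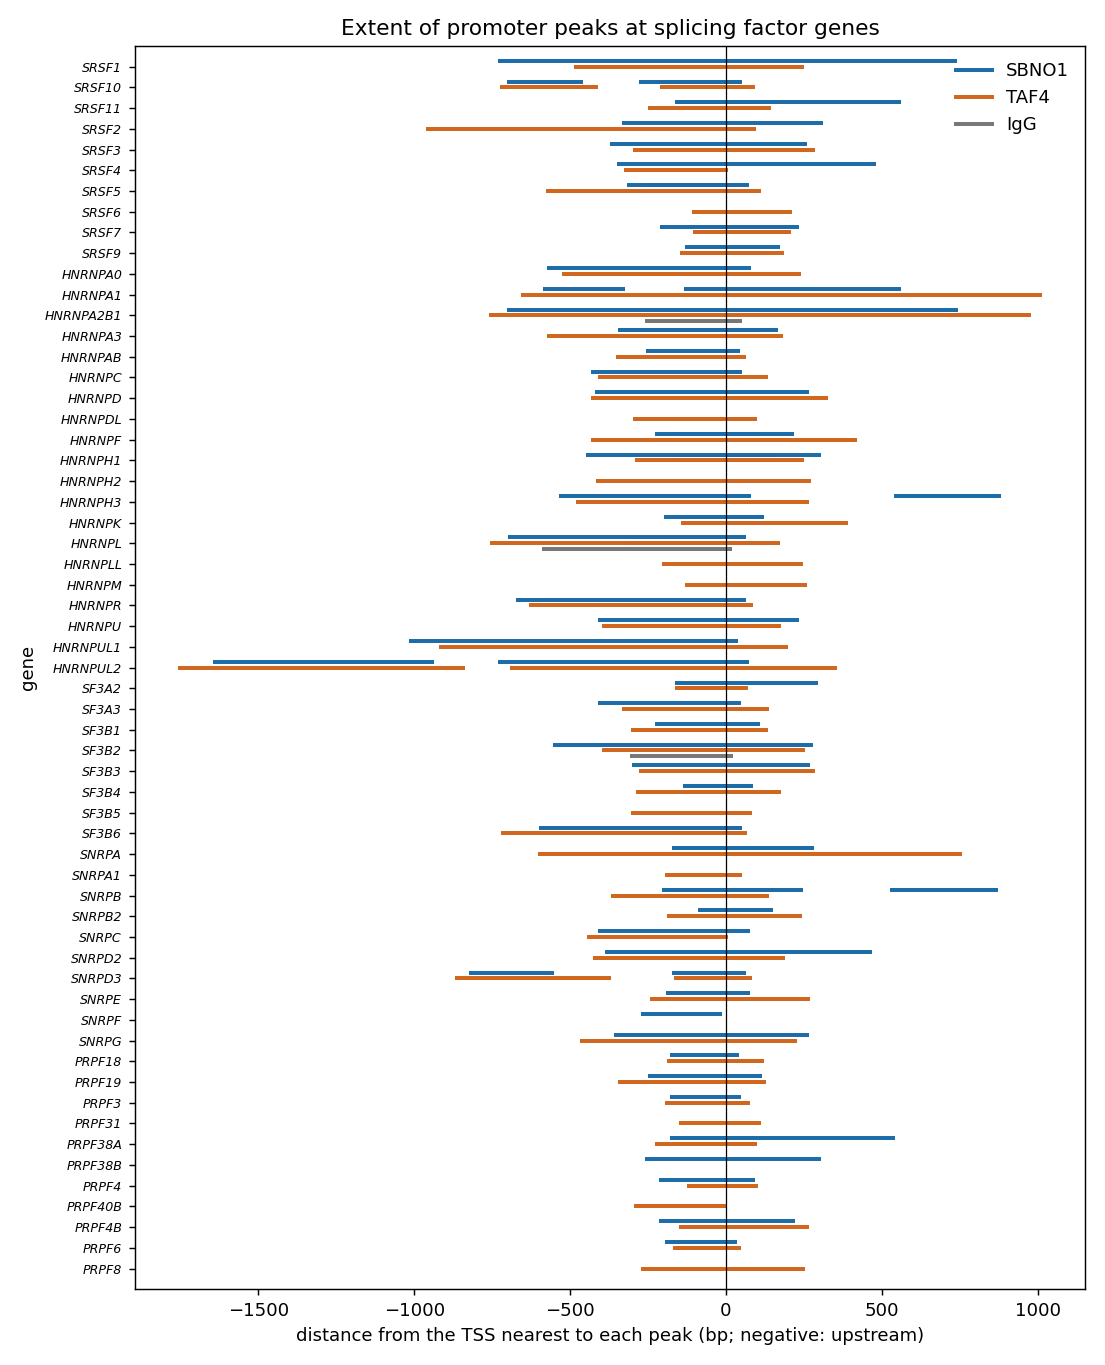
Extent of the promoter peaks of the marked genes named in the text (y axis) as distance in bp from the TSS nearest to that peak (x axis, negative values upstream), in blue for SBNO1, orange for TAF4 and grey for IgG. Peaks at different promoters of a gene are drawn over each other; nearly all lines cross 0, the SBNO1 line of SNRPF ends just before it, and the SRSF1 and SRSF4 SBNO1 lines reach farther downstream than the TAF4 lines.

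Widths of the individual promoter peaks were a little above those of all genes. The median was 455 bp for SBNO1 (quartiles 294 and 656 bp, 64 peaks) against 420 bp over all 4791 SBNO1 promoter peaks, and 467 bp for TAF4 (quartiles 330 and 658 bp, 71 peaks) against 418 bp over 6042. The score of SBNO1 peaks had a median of 863 at splicing factor genes and 850 over all promoter peaks, and 32.8% and 32.2% were at the cap of 1000. TAF4 scores were at the cap in 60.6% and 50.1%. Summed over the peaks of a gene that had both proteins, the median width was 644 bp for SBNO1 and 585 bp for TAF4 at the 47 splicing factor genes, and 468 and 519 bp over the 4450 genes. These differences were not tested, because genes are not replicates.

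SBNO1 and TAF4 peaks lay on the same stretch. In 47 of 47 genes with both, an SBNO1 and a TAF4 peak overlapped by 1 bp or more, which was also the case in 4387 of all 4450 such genes. The pair of peaks with the largest overlap was taken in each gene. At the median, 92.5% of the SBNO1 peak (all genes 92.6%) and 83.2% of the TAF4 peak (all genes 85.2%) were covered by the other. Among the pairs of the 47 splicing factor genes, the smallest coverage of the SBNO1 peak was at PRPF38A (38.7%), followed by SRSF4 (40.4%) and SRSF11 (40.5%). A further SBNO1 promoter peak without any TAF4 overlap was present at HNRNPH1 (310 bp), HNRNPH3 (342 bp) and SNRPB (348 bp), and a further TAF4 promoter peak without SBNO1 overlap at SRSF9 (252 bp) and HNRNPL (441 bp). At SRSF9 this TAF4 peak covered the canonical TSS, whereas the overlapping pair lay at another TSS of the gene. The centres of the pair were within 100 bp of each other in 31 of 47 genes (66.0%), while this was 73.1% of the 4387 overlapping pairs of all genes. The summed width was larger for TAF4 in 29 of 47 genes (61.7%) and in 2670 of all 4450. Across the 47 genes, the summed widths had a Spearman correlation of 0.723, given as a description, since both lists come from the same cells and share local base composition and mappability. Over all 4450 genes it was 0.571.

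**Figure D4:**
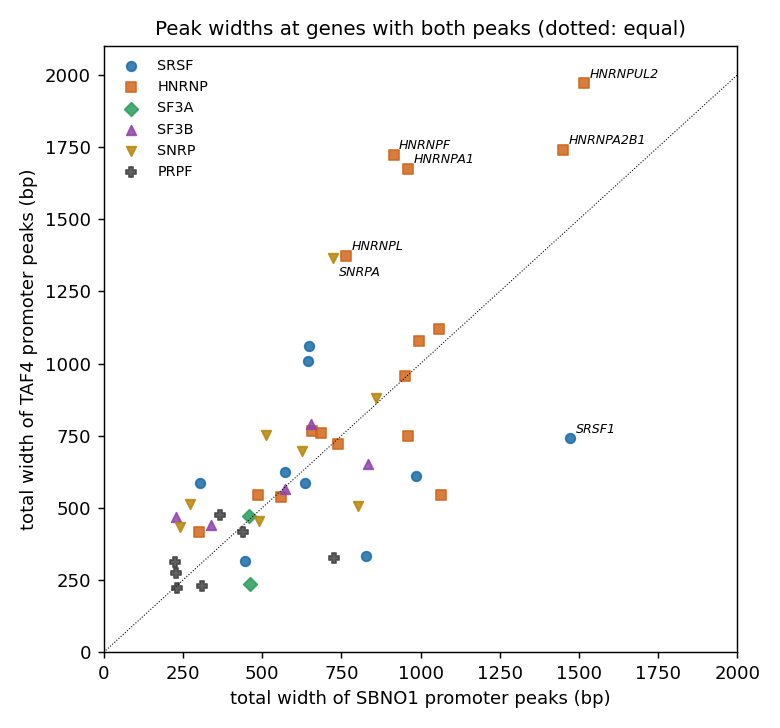
Summed width in bp of SBNO1 (x axis) and TAF4 (y axis) promoter peaks for the 47 genes with both, with a symbol and colour per family and a dotted line of equal width. SRSF1 lies far to the right with 1473 bp of SBNO1 and 741 bp of TAF4, whereas HNRNPUL2, HNRNPA2B1, HNRNPF, HNRNPA1, HNRNPL and SNRPA lie at the top, above the line.

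Many of these promoters are shared with a neighbouring gene, so that a peak cannot be ascribed to a single gene. The SBNO1 peak reached a TSS of another protein-coding gene in 16 of 49 splicing factor genes (32.7%) and in 33.3% of all SBNO1-marked genes. For TAF4 this was 23 of 58 (39.7%) and 33.2%. In 22 of the 23 cases the neighbour was transcribed from the opposite strand, for example with start sites apart by 40 bp (SRSF7 and GEMIN6, which functions in snRNP assembly), 54 bp (SRSF2 and MFSD11) and 64 bp (SNRPD3 and GUCD1). The strand of neighbours was not counted over all genes, so this share cannot be called particular to splicing factor genes. When a peak was given to the nearest TSS only, SBNO1 was lost at HNRNPUL2, SNRPD3 and PRPF4, and TAF4 at SRSF2, SF3B6, SNRPD3 and PRPF40B.

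Peaks beyond the protein-coding TSS were listed for the splicing factor genes only. The share over all genes was not computed, so their number cannot be called high or low. At the 72 genes and over 1 kb from any of their protein-coding TSS, SBNO1 and TAF4 peaks were found together in SRSF5, SRSF8, SRSF9 and HNRNPM, and an IgG peak in SF3B2. In SRSF5 the SBNO1 peak (352 bp, score 1000) lay 14312 bp from the nearest TSS of the gene. The peaks in SRSF9 had centres at -21281 bp (SBNO1) and -21263 bp (TAF4) from the nearest protein-coding TSS of the gene. Both covered the annotated 5′ end of SRSF9, which is not a protein-coding TSS, so they did not lie inside the gene body.

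The GC content of the promoters was compared with the peak status, and its part in the result was not tested. The median GC content over 1 kb at the TSS was 59.3% for the 72 genes and 61.4% for all genes. It was 59.6% for the SBNO1-marked genes, 64.1% for those with TAF4 alone and 47.5% for the 12 with neither, which ranged from 41.5% to 72.8%. Of these 12, the 6 copies of HNRNPA1 and HNRNPC had a median of 44.7% and the other 6 genes one of 57.8%, near that of the whole group. Below 45% GC none of 5 splicing factor genes had a peak, all of them copies (HNRNPA1L2, HNRNPA1L3 and HNRNPCL1 to HNRNPCL3), where the shares over all genes were 5.62% (SBNO1) and 4.97% (TAF4). Between 45% and 55% GC, SBNO1 marked 9 of 13 (69.2%, all genes 23.3%), between 55% and 65% it marked 25 of 33 (75.8%, all genes 33.3%), and from 65% 15 of 21 (71.4%, all genes 24.5%). For TAF4 these shares were 76.9%, 84.8% and 95.2%, and over all genes 24.6%, 40.8% and 33.7%. IgG marked 0 of 13 (all genes 1.29%), 1 of 33 (3.03%, all genes 1.76%) and 2 of 21 (9.52%, all genes 1.35%). Hence, within each GC class from 45% upwards the SBNO1 and TAF4 shares of splicing factor genes remained above those of all genes.

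A gene with more start sites also offers more places for a peak. The 72 genes and all genes had a median of 3 TSS each. Among genes with 1 TSS, SBNO1 marked 8 of 16 and TAF4 10 of 16 (62.5%), compared with 15.3% and 19.1% of all genes with 1 TSS. With 7 or more TSS, SBNO1 marked 10 of 14 (71.4%) and TAF4 13 of 14 (92.9%), compared with 38.5% and 46.7%. By chromosome, the 3 splicing factor genes on chromosome 5, HNRNPA0, HNRNPAB and HNRNPH1, all had both proteins, and this chromosome also had the highest shares over all genes (40.4% and 43.9%). The share over all genes was low on chromosome 16 (8.19% and 18.9%), where SF3B3 had both peaks and HNRNPA1L3 neither.

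Short motifs were counted on both strands in the promoter from 250 bases upstream to 50 bases downstream of the canonical TSS. CCAAT was present in 39 of 72 promoters (54.2%) and in 36.1% of all 19688 promoters, and CCGGAA in 30 of 72 (41.7%) and 22.7%. GGGCGG was found in 40 of 72 (55.6%) and in 61.6% of all promoters. Among SBNO1-marked splicing factor genes, CCGGAA was present in 25 of 49 (51.0%, interval 36.3% to 65.6%), while the share of all SBNO1-marked genes was 36.6%. Of the 11 genes with TAF4 alone, 9 held CCAAT (81.8%, interval 48.2% to 97.7%) and 2 held CCGGAA. For comparison, CCAAT was held by 24 of the 49 SBNO1-marked splicing factor genes (49.0%, interval 34.4% to 63.7%) and by 6 of the 12 with neither. The share over all genes with TAF4 alone was not computed, and these differences were not tested. The remaining motifs searched, which can overlap GGGCGG in the case of the G-rich motif, were AAGATGGC (4 of 72 promoters), TGACGTCA (0 of 72), TGACTCA or TGAGTCA (2 of 72), CACGTG (8 of 72) and GGGGAGGG (13 of 72). Their shares over all promoters were 4.06%, 2.72%, 3.56%, 8.75% and 17.7%.

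In 200 bp at the centre of SBNO1 promoter peaks, CCAAT was present in 25 of 64 peaks (39.1%, all 4791 promoter peaks 32.7%), CCGGAA in 22 (34.4%, all 25.0%) and TATAAA in 7 (10.9%, all 4.22%). At TAF4 centres these were 28 of 71 (39.4%, all 35.5%), 22 (31.0%, all 24.6%) and 6 (8.45%, all 3.69%). GGGCGG was present in 33 of 64 (51.6%, all 53.4%) SBNO1 centres and in 33 of 71 (46.5%, interval 34.5% to 58.7%, all 59.6%) TAF4 centres. TGACTCA or TGAGTCA was present in 2 of 64 SBNO1 centres (3.12%, all 7.12%) and in 3 of 71 TAF4 centres (4.23%, all 4.97%). An exact match is a description of the sequence and does not show that a factor was bound.

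TATAAA, the core of the TATA box to which the TATA-binding protein of TFIID binds, was present in 9 of 72 promoters (12.5%) and in 9.65% of all promoters. All 9 belonged to genes marked by both SBNO1 and TAF4, so the match does not set SBNO1 apart from TAF4. They were 18.4% of the 49 SBNO1-marked genes (interval 8.76% to 32.0%), while 6.07% of all SBNO1-marked promoters held it. The share among TAF4-marked genes was not computed. The position was looked at after these values had been seen. A match starting 40 to 20 bases upstream of the TSS, where a TATA box acts, was found in 5 of the 72 splicing factor genes (6.94%, interval 2.29% to 15.5%) and in 4.48% of all genes, a share inside that interval. All 5 had both SBNO1 and TAF4 peaks (10.2% of the 49 SBNO1-marked genes, interval 3.40% to 22.2%), and 135 of all 5057 SBNO1-marked genes had such a match (2.67%). These were SRSF2, SRSF3, SRSF7, HNRNPAB and PRPF4B, and their stretches before the TSS are printed to show the box in capitals, together with any other match to the motifs named above. They lie in GRCh38 at chr17:76737332-76737391, minus strand (SRSF2), chr6:36594302-36594361, plus strand (SRSF3), chr2:38751362-38751391, minus strand (SRSF7), chr5:178204473-178204532, plus strand (HNRNPAB) and chr6:4021240-4021299, plus strand (PRPF4B).
SRSF2: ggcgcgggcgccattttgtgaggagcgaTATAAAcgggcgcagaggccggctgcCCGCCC
SRSF3: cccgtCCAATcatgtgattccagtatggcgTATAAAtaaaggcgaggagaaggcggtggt
SRSF7: ataTATAAAcgcgaacccgggctcttcctc
HNRNPAB: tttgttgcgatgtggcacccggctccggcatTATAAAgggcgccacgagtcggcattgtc
PRPF4B: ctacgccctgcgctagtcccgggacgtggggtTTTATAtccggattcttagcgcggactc

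The match started at position -32 in SRSF2, -30 in SRSF3, -27 in SRSF7 and -29 in HNRNPAB, counted from the TSS. In PRPF4B it lay on the other strand, as TTTATA starting at -28. The 30 printed bases of SRSF7 lay wholly within annotated exons, and its canonical TSS lies downstream of another TSS of the gene. All printed bases were inside both an SBNO1 and a TAF4 peak. The other promoters with a match were those of SRSF11, HNRNPC, HNRNPD and SNRPC, with the match starting at positions from -237 to -126.

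To see whether other splicing genes had the same peaks, 96 genes outside the symbol rule were examined in 6 lists by role. SBNO1 marked 57 of them (59.4%, interval 48.9% to 69.3%), TAF4 72 (75.0%, interval 65.1% to 83.3%), IgG 2 (2.08%) and both proteins 53 (55.2%). The list of tri-snRNP, Prp19 complex and catalytic factors had 21 of 30 genes with SBNO1 (70.0%) and 26 with TAF4 (86.7%), among them EFTUD2, the GTPase of U5 snRNP, with SBNO1 and TAF4 peaks of 565 and 433 bp. The SR-related proteins, their kinases and the exon junction complex had 10 of 17 with SBNO1 (58.8%) and 13 with TAF4 (76.5%), including TRA2B (706 and 530 bp) and EIF4A3, the helicase of the exon junction complex (575 and 511 bp). Among the SR protein kinases, SRPK1 and CLK2 had both, CLK1 and CLK4 had TAF4 alone, and SRPK2 and CLK3 had neither.

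Other regulators of exon choice had 12 of 23 genes with SBNO1 (52.2%) and 17 with TAF4 (73.9%). The widest SBNO1 peak there was at RBM39 (1286 bp), which also had a TAF4 peak of 1339 bp and an IgG peak of 465 bp. The epithelial splicing regulator ESRP2 had both (323 and 535 bp). The genes of this list with neither were those of the neuronal factors NOVA1, NOVA2 and PTBP2, and also ELAVL1 and QKI. For factors of the 3′ splice site and branch point, SBNO1 marked 7 of 12 (58.3%) and TAF4 8 (66.7%). SF1, which first binds the branch point, had both (1089 and 1223 bp) and an IgG peak of 629 bp, while U2AF1 had none and its partner U2AF2 had both (363 and 923 bp). The Sm-like ring of U6 snRNP had both in 4 of 7 genes, and the SNRNP genes had SBNO1 in 3 and TAF4 in 4 of 7, with SNRNP70 of U1 snRNP carrying both.

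Genes of other machineries used by all cells are given for comparison only. Among 86 cytosolic ribosomal protein genes, SBNO1 marked 87.2% (interval 78.3% to 93.4%), TAF4 93.0% and IgG 3.49%. Among 48 proteasome genes, SBNO1 marked 60.4% (interval 45.3% to 74.2%), TAF4 68.8% and IgG none, with an upper limit of 7.40%. The splicing factor shares of 68.1% and 80.6% lay between those of the ribosomal and the proteasome genes. The differences between these groups were not tested.

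**Figure D5:**
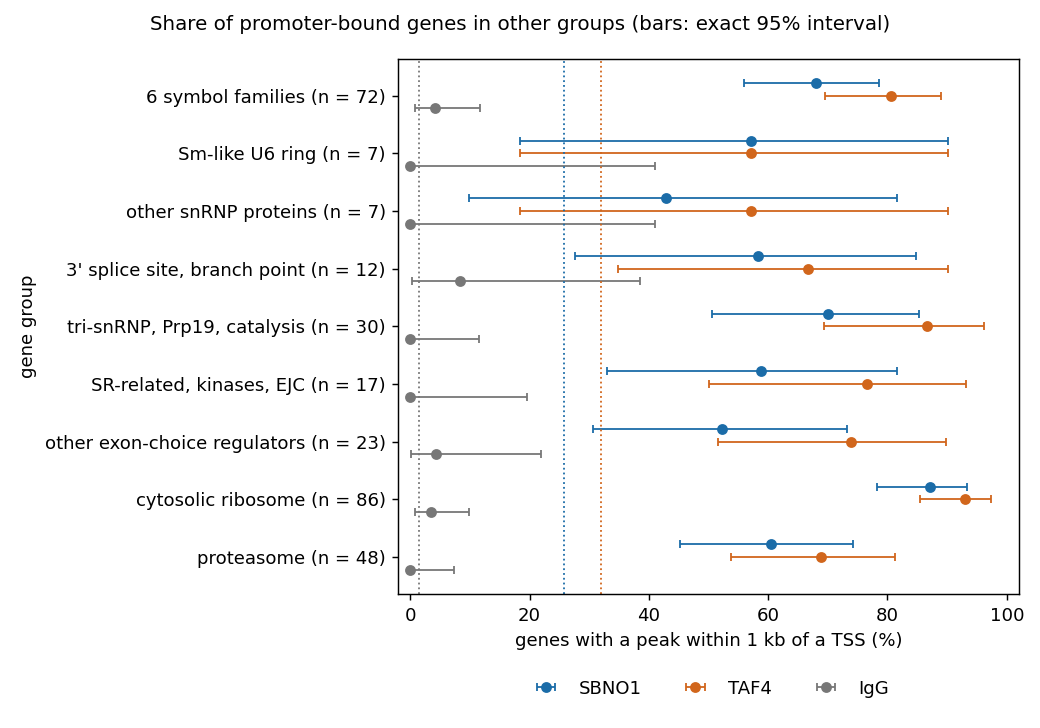
Percentage of genes with a peak within 1 kb of a TSS (x axis) in the 6 symbol families combined, in the 6 lists of other splicing genes and in the ribosomal and proteasome genes (y axis), in blue for SBNO1, orange for TAF4 and grey for IgG. Points are shares, bars are exact 95% intervals over genes and dotted lines are the shares over all protein-coding genes; the ribosomal genes are highest with 87.2% and 93.0%.

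IgG peaks lay at 3 of 72 splicing factor genes (4.17%, all genes 1.41%), at promoters with wide SBNO1 peaks, HNRNPA2B1, HNRNPL and SF3B2. The SBNO1 peaks of these 3 genes were 1449, 765 and 835 bp wide. All were above 696 bp, the upper quartile of the widest peak per SBNO1-marked splicing factor gene. Other wide SBNO1 peaks had no IgG peak in reach, for example those of SRSF1 (1473 bp) and HNRNPUL1 (1058 bp). Without all peaks that overlapped an IgG peak, SBNO1 marked 46 of 72 genes (63.9%, all genes 24.6%) and TAF4 56 of 72 (77.8%, all genes 30.8%). Whether the IgG library had been used as control in the peak calls was not given in the sources used here.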

How the data were processed

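ChIP-seq of HuCCT1 cells was analysed from 3 deposited peak lists, 1 per antibody. Chromatin was cut with a nuclease kit, per the labels. According to the study's methods, precipitates of biological replicates were pooled, and ktrim, bowtie2 (against GRCh38) and normR processed the single-end reads in this order. The submitters' processing notes instead name Bowtie2 2.5.4 and Genrich 0.6.1, so the peak caller is uncertain. The study reports far fewer genes with an SBNO1 or TAF4 promoter peak than these lists give. It also reports a larger share of peaks within 1 kb of a TSS. The lists used here thus do not appear to be the set counted there, and all shares hold for these lists only. The peak threshold and the treatment of duplicates are not given in the sources used here. The score deposited by the authors is a whole number capped at 1000 with no stated scale, and it was used only to describe and rank peaks within a list.

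TSS and exons were taken from GENCODE 44, and coordinates are 1-based. Every gene within 1 kb (1000 bp) of a peak edge was counted. Exact 95% Clopper-Pearson intervals were computed with SciPy 1.17.1 in Python 3.11.15, sequences were read with pysam 0.24.0, and figures were drawn with matplotlib 3.10.9. Overlap meant 1 bp or more. No tests were run. The functions for reach and overlap were tested on simulated data. The members, the lists of other splicing genes and the motifs were chosen with earlier results of these data known. Named genes were SRSF4, the widest SBNO1 and TAF4 peak of each family, all genes with an IgG peak, genes with a peak of only SBNO1 or only TAF4, and all genes without a peak; HNRNPF, SF3B1, the TATA box genes, the role groups within families and genes named from the other lists were added after their values were seen. The values of 1 gene of the group are not reported here by name. Printed stretches were limited to 30 exonic bases. Alternatives were other distances, TSS sets, gene assignments, score filters, removal of IgG peaks and equal list lengths.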

Additional observations from a re-analysis of the deposited data

How the results depend on the processing

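Of 38 alternative values, 33 stayed within 1.5 times the reported count. The score filter moved the rest. With peaks at or above the median score of their list, SBNO1 marked 27 of 72 genes (all genes 13.1%) and both proteins 23 (all genes 9.21%), while TAF4 marked 45 (all genes 19.6%). With peaks at the score cap of 1000, chosen after seeing the data, SBNO1 marked 20 (all genes 9.14%), both proteins 14 (all genes 6.22%) and IgG 0 (all genes 0.117%), while TAF4 marked 39 (all genes 17.3%). These filters leave fewer peaks by construction. Assignment to the nearest TSS gave 46 genes with SBNO1 (all genes 21.8%), 54 with TAF4 (all genes 27.2%) and 42 with both (all genes 18.0%). Using only the 12763 highest-scoring SBNO1 peaks, the length of the TAF4 list, left 43 with SBNO1 (all genes 20.4%). Without the 6 copies of HNRNPA1 and HNRNPC, a choice made after seeing the data, the shares were 74.2% and 87.9% of 66. A reciprocal overlap of over 50% was met by 40 of the 47 genes with both, and by 3804 of all 4450 such genes. No paired analysis was possible because there was 1 library for each antibody. Depth is unknown, so a missing peak does not show that a protein was absent.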
